A study of Mus musculus with 6 samples.

Results

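Cohesin genes were read on whole-transcript arrays of KLS cells, bone marrow cells sorted as positive for Kit and Sca-1 and negative for lineage markers, among which are the blood stem cells and multipotent progenitors. The genotypes were wild-type (3 arrays) and Dnmt3a+/- (3 arrays), the latter with 1 of its copies of Dnmt3a, a gene for an enzyme that methylates DNA, disrupted. The labels name no age, no further allele, no agent and no animal of origin. If arrays of a genotype share an animal or culture, the p-values reflect technical spread only. The genes examined were 10 of the 20059 genes measured: the ring genes Smc1a, Smc3, Rad21, Stag1 and Stag2, the loader Nipbl, the release and regulatory factors Wapl, Pds5a and Pds5b, and the boundary factor Ctcf. They were chosen by name, as the probe sets whose platform annotation gave exactly 1 gene symbol that was one of these or an older synonym (Wapl was listed as Wapal, and some Pds5a probe sets as B230308N11Rik). Of their 390 probe sets, 370 lay above the median intensity of the table and entered the gene values, so every gene was measured, by 13 (Ctcf) to 59 (Nipbl) probe sets.

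Cohesin is a ring-shaped protein complex that encircles DNA. Nipbl loads it onto chromatin, Wapl with the Pds5 proteins takes it off, and Ctcf halts it at fixed sites, so that loops of chromatin form and sister chromatids stay joined until mitosis. Somatic mutations of STAG2, RAD21, SMC1A and SMC3 recur in human myeloid malignancies, the disease group named in the title of this study, and so do mutations of DNMT3A. The comparison asks whether the levels of these transcripts differ in stem and progenitor cells that have only 1 intact copy of Dnmt3a.

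The promoter of Pds5a is printed because this gene was one of the 2 whose arrays did not overlap between the genotypes, and that of Smc3 as a ring gene whose arrays overlapped. Both are the 250 bases before the gene's start, written 5′ to 3′ on the gene's strand, from RefSeq with build GRCm38.p6. They lie at chr5:65698237-65698486 (minus strand) and chr19:53600146-53600395 (plus strand), and no gene of the RefSeq table overlaps either window. Capitals mark each CG, the site that DNA methyltransferases act on, which reads the same on both strands.
Pds5a: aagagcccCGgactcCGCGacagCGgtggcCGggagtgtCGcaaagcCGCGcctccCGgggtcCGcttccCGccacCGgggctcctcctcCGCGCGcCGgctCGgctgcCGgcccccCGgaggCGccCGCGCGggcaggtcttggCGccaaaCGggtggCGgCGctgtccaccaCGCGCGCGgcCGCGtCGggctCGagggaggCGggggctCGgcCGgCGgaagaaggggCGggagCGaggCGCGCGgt
Smc3: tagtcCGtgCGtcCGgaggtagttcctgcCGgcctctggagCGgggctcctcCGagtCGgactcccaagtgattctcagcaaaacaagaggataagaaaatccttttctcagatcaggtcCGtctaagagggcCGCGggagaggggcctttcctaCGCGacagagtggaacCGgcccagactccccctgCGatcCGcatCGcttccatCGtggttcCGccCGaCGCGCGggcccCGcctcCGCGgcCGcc
The Pds5a window held 44 CG sites and the Smc3 window 26. Among all 32851 promoter windows of this length, 92.1% held at least 1 CG, with a median of 6 sites, and 99.6% held no more than the Pds5a window. For the Smc3 window that share was 91.4%. Of the 10 genes, 7 had an entry in the promoter table, and their windows held 16 (Smc1a) to 44 CG sites. Those of Ctcf, Pds5b and Wapl, whose arrays overlapped between the genotypes, held 40, 36 and 32. Methylation at these sites was not measured on these arrays.

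All 10 cohesin genes had a lower mean in Dnmt3a+/- than in wild-type cells, by small amounts, and none of the differences passed adjustment over all genes (limma, adjusted p from 0.631 to 0.935). The median log2 difference of the 10 was -0.23, and single genes ran from -0.35 for Ctcf to -0.04 for Stag1. A negative difference was also the more common sign among genes in general, at 54.3% of all 20059, with a median of -0.02. Among the 4323 other genes whose mean intensity lay within the range spanned by the 10 (log2 8.06 to 9.86), 78.5% were negative and the median was -0.13. Across all genes the difference ran against intensity (Spearman -0.369, over genes, which are not independent replicates). The share of genes called at adjusted p 0.05 was 0%, and 7.49% (1502 genes) had an unadjusted p under 0.05 in either direction (limma), 4.57% on the lower and 2.92% on the higher side.

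**Figure D1:**
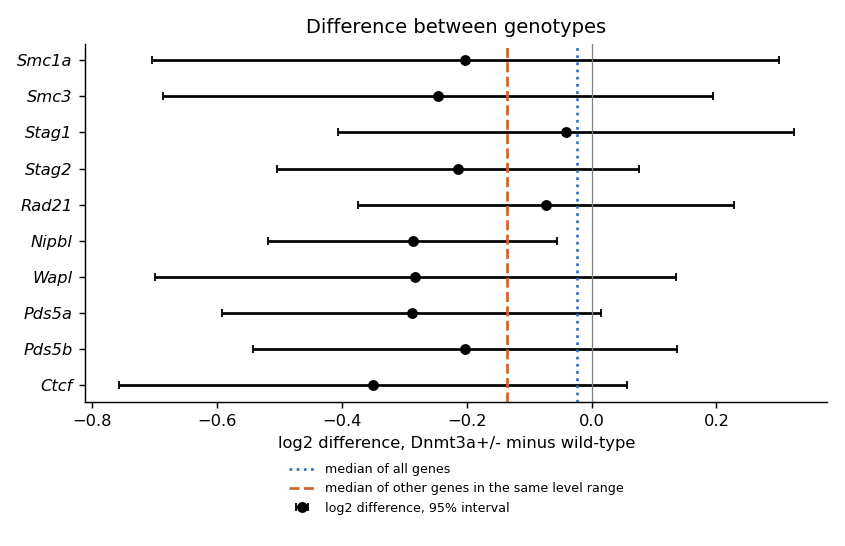
Log2 difference (Dnmt3a+/- minus wild-type, 3 arrays each) of each cohesin gene on the x axis, with its 95% confidence interval from limma; the dotted line is the median of all genes and the dashed line that of other genes in the same intensity range. The points lie between -0.35 and -0.04, and only the interval of Nipbl, from -0.52 to -0.05, leaves out 0.

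Facts of the arrays bear on all of these values. Between arrays, Pearson correlations across genes were 0.897 to 0.964, and Dnmt3a+/- replicate 2 had the lowest mean correlation with the others (0.904, against 0.938 to 0.949). Dnmt3a itself was lower on every Dnmt3a+/- array, with a log2 difference of -0.31 (SE 0.12, limma adjusted p = 0.631). The antigens of the sort were measured on every array, Kit with a difference of -0.11 (SE 0.10) and Ly6a, which encodes Sca-1, with -0.02 (SE 0.13).

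For all 5 ring genes the arrays of the genotypes overlapped. Smc1a, one of the paired ATPase arms of the ring, read log2 9.64, 10.26 and 9.98 on wild-type replicates 1, 2 and 3 and 10.03, 9.36 and 9.89 on Dnmt3a+/- replicates 1, 2 and 3. Dnmt3a+/- replicate 1 was thus above wild-type replicates 1 and 3, and only Dnmt3a+/- replicate 2 lay below all wild-type arrays. Means were 9.96 ± 0.31 and 9.76 ± 0.35 (SD, n = 3), a difference of -0.20 (SE 0.22, limma adjusted p = 0.755), but the size depended on single arrays. It was -0.0014 without Dnmt3a+/- replicate 2 and -0.05 without wild-type replicate 2, and -0.36 without wild-type replicate 1 and -0.34 without Dnmt3a+/- replicate 1. Smc3, the other arm, read 9.34, 9.93 and 9.68 on the wild-type arrays and 9.53, 9.09 and 9.58 on the Dnmt3a+/- arrays. Again wild-type replicate 1 and Dnmt3a+/- replicate 2 were the low arrays and the genotypes overlapped. Its difference was -0.25 (SE 0.19, limma adjusted p = 0.694), with -0.09 without Dnmt3a+/- replicate 2, -0.11 without wild-type replicate 2 and -0.40 without wild-type replicate 1.

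Rad21, the kleisin that closes the ring and is cut by separase at anaphase, read 8.98, 9.38 and 9.28 on the wild-type arrays and 9.14, 9.09 and 9.19 on the Dnmt3a+/- arrays. All 3 Dnmt3a+/- arrays fell inside the wild-type range. The difference was -0.07 (SE 0.13, 95% confidence interval -0.37 to 0.23), and it was 0.0093 without wild-type replicate 2, -0.19 without wild-type replicate 1 and -0.25 with the median of the probe sets. Stag1, which binds Rad21 and anchors the ring to chromatin, read 7.76, 8.36 and 8.10 on the wild-type arrays and 8.05, 8.03 and 8.02 on the Dnmt3a+/- arrays. Here the Dnmt3a+/- arrays were nearly equal and inside the wild-type range. The difference of -0.04 (SE 0.16) turned to 0.10 without wild-type replicate 2 and was -0.20 without wild-type replicate 1. Stag2, the X-linked alternative to Stag1 in the ring and the cohesin gene most often mutated in myeloid disease, read 8.56, 8.86 and 8.80 on the wild-type arrays and 8.50, 8.43 and 8.64 on the Dnmt3a+/- arrays. Only Dnmt3a+/- replicate 3 exceeded a wild-type array, replicate 1. Stag2 differed by -0.21 (SE 0.13, 95% confidence interval -0.50 to 0.08, limma adjusted p = 0.651).

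**Figure D2:**
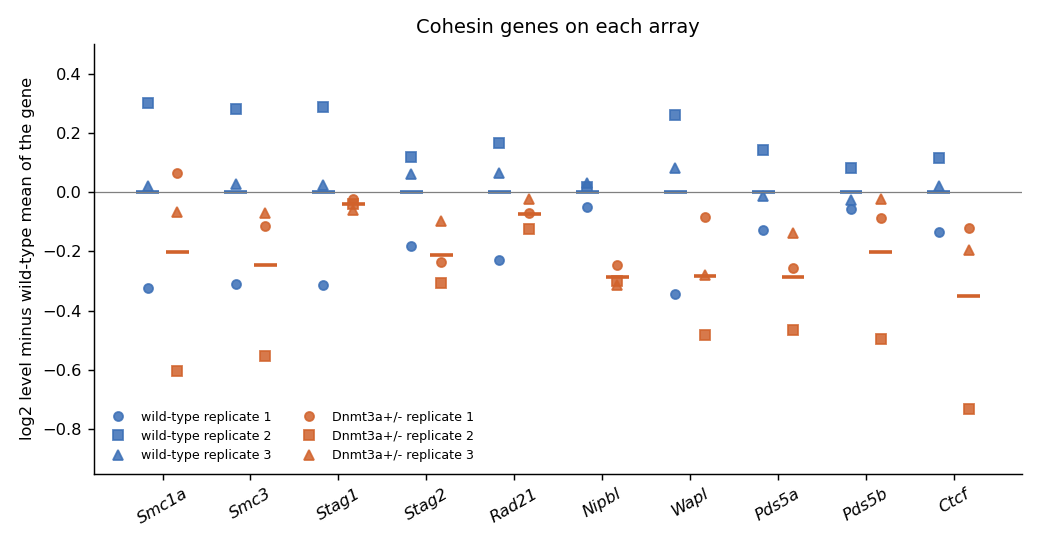
Log2 level of each cohesin gene on each of the 6 arrays, minus the gene's wild-type mean (y axis), with wild-type in blue and Dnmt3a+/- in orange; marker shapes give the replicate number and bars the group means of 3 arrays. Wild-type replicate 1 lies lowest of the wild-type arrays for every gene, and only Nipbl and Pds5a have all orange points below all blue ones.

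Nipbl, which encodes the loader, had the smallest standard error of the 10 genes. It read 9.15, 9.22 and 9.23 on the wild-type arrays and 8.96, 8.90 and 8.89 on the Dnmt3a+/- arrays. Every Dnmt3a+/- array lay below every wild-type array, and none of the 6 stood apart. Means were 9.20 ± 0.04 and 8.92 ± 0.04 (SD, n = 3), a difference of -0.29 (SE 0.10, 95% confidence interval -0.52 to -0.05) or a fold of 0.820. An exact two-sided permutation test gave p = 0.1, its lowest possible value with 3 arrays a group, and the adjusted p over all genes was 0.631 (limma). Without any single array the difference was between -0.31 and -0.27. Nipbl was the only one of the 10 genes with an unadjusted p under 0.05 (limma), where 8.07% of other genes in the same intensity range had such a p on the lower side. That call was lost with the median of the probe sets in place of their mean, with the replicate number as a block, and without wild-type replicate 2 or 3 or Dnmt3a+/- replicate 3, while the size of the difference stayed between -0.31 and -0.25 over these and all other alternatives. With the median of the probe sets, Stag2 (-0.36) and Ctcf (-0.55) had such a p instead.

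Pds5a, a scaffold that works with Wapl in release and also takes part in keeping cohesin on chromatin, read 8.84, 9.11 and 8.95 on the wild-type arrays and 8.71, 8.50 and 8.83 on the Dnmt3a+/- arrays. The genotypes did not overlap, but Dnmt3a+/- replicate 3 and wild-type replicate 1 were nearly equal. Its difference was -0.29 (SE 0.13, 95% confidence interval -0.59 to 0.02, limma adjusted p = 0.631), and the exact permutation p was again 0.1. In all, 2 of the 10 genes had non-overlapping, lower Dnmt3a+/- arrays, against 9.05% of all genes and 18.7% of other genes in the same intensity range. The count for the 10 is close to that of genes of similar intensity.

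Pds5b, the paralog of Pds5a, read 8.57, 8.71 and 8.60 on the wild-type arrays and 8.54, 8.13 and 8.61 on the Dnmt3a+/- arrays. Its low array was Dnmt3a+/- replicate 2, while Dnmt3a+/- replicate 3 lay between wild-type arrays. The difference of -0.20 (SE 0.15) was -0.05 without that low array. Wapl, which opens the ring, read 8.31, 8.91 and 8.73 on the wild-type arrays and 8.56, 8.17 and 8.37 on the Dnmt3a+/- arrays. Wild-type replicate 1 was below 2 of the 3 Dnmt3a+/- arrays. Wapl differed by -0.28 (SE 0.18, limma adjusted p = 0.664), and by -0.45 without wild-type replicate 1, -0.15 without wild-type replicate 2 and -0.18 without Dnmt3a+/- replicate 2.

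Ctcf, the zinc finger protein that stops cohesin at loop anchors, had the lowest difference of the 10, and it rested largely on 1 array. It read 9.35, 9.60 and 9.51 on the wild-type arrays and 9.36, 8.75 and 9.29 on the Dnmt3a+/- arrays. Dnmt3a+/- replicate 2 was far below the rest, and Dnmt3a+/- replicate 1 slightly exceeded wild-type replicate 1. The difference was -0.35 (SE 0.18, 95% confidence interval -0.76 to 0.06, limma adjusted p = 0.631), and -0.16 without Dnmt3a+/- replicate 2, and with the median of the probe sets it was -0.55.

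Over the 10 genes together, the median deviation from each gene's wild-type mean was -0.20, 0.15 and 0.03 on the wild-type arrays and -0.10, -0.47 and -0.08 on the Dnmt3a+/- arrays. Wild-type replicate 1 was therefore lower than 2 of the 3 Dnmt3a+/- arrays, and the genotypes overlapped. Without Dnmt3a+/- replicate 2 the median difference was -0.13, where other genes in the intensity range had -0.06, and without wild-type replicate 2 it was -0.15, with 8 of 10 genes negative. Without wild-type replicate 1 it was -0.33, and 8 of the 10 genes then had non-overlapping, lower Dnmt3a+/- arrays. The shares were 17.2% of all genes and 34.7% of other genes in the intensity range. That array was the lowest wild-type one for all 10, so the count of 8 depends on which array was left out. It was 2 without wild-type replicate 2 and 2 without wild-type replicate 3. Leaving out Dnmt3a+/- replicates 1, 2 and 3 in turn gave 3, 2 and 4. The 10 were chosen with earlier results of these data known, so these counts are a description.

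Paralogs and partners were set against each other within each array, where differences shared by the pair cancel. Relative to its wild-type mean, Stag1 minus Stag2 was -0.13, 0.17 and -0.03 on the wild-type arrays and 0.21, 0.27 and 0.04 on the Dnmt3a+/- arrays. Dnmt3a+/- replicates 1 and 2 lay above all wild-type arrays and replicate 3 among them. The shift was 0.17 (95% confidence interval -0.14 to 0.49, exact two-sided permutation p = 0.2, adjusted p = 0.45 over the 3 pairs compared). Pds5a minus Pds5b shifted by -0.09 (95% confidence interval -0.28 to 0.11, exact permutation p = 0.3, adjusted p = 0.45). For Smc1a minus Smc3, whose proteins form the ring in equal numbers, the shift was 0.04 (95% confidence interval -0.15 to 0.24, exact permutation p = 0.8, adjusted p = 0.8). These intervals leave room for unequal shifts in either direction within each pair.

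Single probe sets, each reading a short stretch of a transcript, show how even the difference was within a gene. Of the 370 probe sets of the 10 genes, 80.3% had a negative difference, against 50.3% of all 628415 probe sets tested. A further comparison took the 67996 named probe sets of other genes within the intensity range of the 10 gene values (log2 8.06 to 9.86). Of these, 62.8% were negative. Some of the 370 lay outside that range, such as Pds5a 4951801 at 5.92 and Smc1a 4593796 at 11.75, so their levels were not matched. None passed adjustment, as for all probe sets (0%, limma, smallest adjusted p = 0.799). In 52 of the 370 (14.1%) the genotypes did not overlap and Dnmt3a+/- was lower, against 6.1% of all probe sets and 8.79% of those in the intensity range, and in 5 they did not overlap with Dnmt3a+/- higher, against 6.31% of all. An unadjusted p under 0.05 (limma) with Dnmt3a+/- lower was found for 20 of the 370 (5.41%), against 3.41% of all probe sets and 4.18% of those in the intensity range, and for 1 with Dnmt3a+/- higher, against 2.8% of all. Probe sets of 1 gene share the same RNA and arrays, so these counts are no independent evidence.

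The difference of Nipbl was shared by most of its probe sets: 53 of 59 probe sets were negative, 17 were non-overlapping and lower, and none was non-overlapping and higher. Its probe sets had a median of -0.27, with quartiles at -0.46 and -0.14. Pds5a had 46 of 53 negative and 11 non-overlapping and lower. Smc1a was the most even gene, with 28 of 29 negative, an SD between probe sets of 0.14 and only 1 that did not overlap. Stag1 was the most uneven in sign, with 22 of 42 negative and a median of -0.01, and with 3 non-overlapping probe sets lower and 2 higher. Its SD of 0.37 was like that of Wapl (0.37).

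Some single probe sets reached farther from 0 than any gene value. The lowest probe set of all, Pds5a 4322152, had a difference of -1.66 (SE 0.67) and read 7.88, 6.16 and 6.74 on the wild-type arrays and 5.87, 3.85 and 6.07 on the Dnmt3a+/- arrays. The genotypes did not overlap there, and Dnmt3a+/- replicate 2 was by far the lowest. The highest, Stag1 5547069, had a difference of 0.93 (SE 0.26) and read 5.97, 6.34 and 6.07 against 6.93, 6.71 and 7.53, so that every Dnmt3a+/- array was above every wild-type one. In Stag1 5283177, with the lowest difference of that gene (-1.09, SE 1.86), the Dnmt3a+/- arrays read 8.90, 10.57 and 2.52, a spread wider than any difference reported here. The lowest Nipbl probe set, 4514591, read 6.86, 6.10 and 6.21 on the wild-type arrays and 5.68, 5.19 and 5.52 on the Dnmt3a+/- arrays, a difference of -0.93 (SE 0.26) with no overlap. Where these probe sets lie in their genes was not used here, so no exon or isoform is named.

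**Figure D3:**
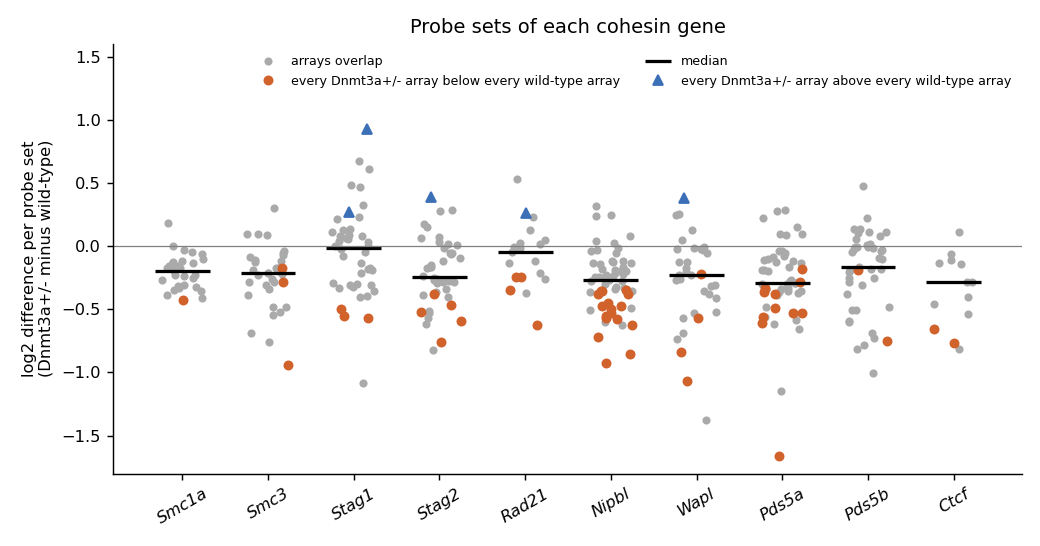
Log2 difference (Dnmt3a+/- minus wild-type) of each of the 370 probe sets, by gene, with the median as a bar; orange circles and blue triangles are probe sets whose 3 Dnmt3a+/- arrays all lie below or above the 3 wild-type arrays. Orange circles make up the highest share in Nipbl (17 of 59), followed by Rad21 (4 of 19) and Pds5a (11 of 53), while Stag1 scatters around 0.

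Further factors of the cohesin cycle were mixed. Of 9 listed (Mau2, Esco1, Esco2, Hdac8, Cdca5, Sgo1, Sgo2a, Espl1 and Pttg1), 7 had negative differences, with a median of -0.15, and 0 passed in either direction (limma, adjusted p). Esco1, an acetyltransferase of Smc3 that stabilises cohesin on chromatin, read 7.43, 7.72 and 7.63 on the wild-type arrays and 7.35, 7.18 and 7.24 on the Dnmt3a+/- arrays. It did not overlap between genotypes and was lower, as were 9.05% of all genes, and its difference was -0.34 (SE 0.12, limma adjusted p = 0.631). Esco1 was the 1 gene of the 9 with an unadjusted p under 0.05 (limma), where 4.57% of all genes had such a p on the lower side. Hdac8, the deacetylase that reverses this mark, differed by -0.27 (SE 0.14) with overlap. Mau2, the partner of Nipbl in the loader, differed by -0.03 (SE 0.14), and its arrays overlapped.

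Of the meiotic subunits, Rec8, the germ cell counterpart of Rad21, read 7.64, 7.61 and 7.52 on the wild-type arrays and 7.23, 7.02 and 6.76 on the Dnmt3a+/- arrays. Its arrays were clear of each other, with a difference of -0.59 (SE 0.14, limma adjusted p = 0.631), farther from 0 than that of any of the 10 cohesin genes. Stag3 (0.15, SE 0.12) and Smc1b (0.10, SE 0.12) lay on the other side and overlapped. Of these 3 measured genes 0 passed, and Rec8 was the 1 with an unadjusted p under 0.05 (limma), where 4.57% of all genes had such a p on the lower side.

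Other SMC complexes had like medians. All 8 condensin genes, which compact mitotic chromosomes, were negative with a median of -0.19, Smc4 being at -0.26 (SE 0.16) and Ncapg at -0.24 (SE 0.24), and 0 passed, had an unadjusted p under 0.05 (limma) or were non-overlapping. All 6 genes of the Smc5/6 complex, which acts in DNA repair, were negative with a median of -0.20. Among them were Nsmce1 at -0.32 (SE 0.16) and Smc5 at -0.20 (SE 0.12). These 2 did not overlap, with Dnmt3a+/- lower, as for 9.05% of all genes and 18.7% of other genes in the cohesin genes' intensity range. Among 6 further looping or DNA-binding factors 4 were negative (median -0.17), with Top2b at -0.21 (SE 0.12) and Adnp at -0.19 (SE 0.12). Adnp, Yy1 and Ldb1, 3 of these 6, did not overlap and were lower, beside the same shares of 9.05% and 18.7%. Ldb1, at log2 9.94, lay above that intensity range. The Ctcf paralog Ctcfl was at 0.06 (SE 0.10). In the latter lists too 0 genes passed over all genes and 0 had an unadjusted p under 0.05 (limma). The medians of the lists were not tested against each other or against the cohesin median of -0.23.

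Genes of dividing cells were low on the same arrays. Of 11 measured, 8 were negative with a median of -0.10, led by Ccne2 at -0.33 (SE 0.30) and Mcm5 at -0.24 (SE 0.24), and 0 passed or had an unadjusted p under 0.05 (limma). Their median deviation was -0.36, 0.14 and 0.22 on the wild-type and -0.08, -0.42 and 0.15 on the Dnmt3a+/- arrays. The cohesin ring had -0.31, 0.28 and 0.03, and -0.07, -0.31 and -0.07 on these arrays, and condensin -0.43, 0.26 and 0.16, and -0.04, -0.49 and -0.04. Wild-type replicate 1 and Dnmt3a+/- replicate 2 were the lowest arrays in all 3 lists. The loader and release factors had -0.09, 0.11 and 0.01, and -0.17, -0.47 and -0.21, so all 3 Dnmt3a+/- arrays lay below the wild-type ones. Among their single genes, Nipbl and Pds5a did not overlap, while Wapl and Pds5b did. This was not particular to cohesin. The list of the SMC complex of DNA repair had -0.01, 0.07 and 0.01, and -0.08, -0.37 and -0.18. The looping or DNA-binding factors had -0.06, 0.09 and -0.02, and -0.11, -0.23 and -0.09. How often lists of other genes separate in this way was not tested. The part of cell division in the cohesin values was not tested.

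Genes listed as markers of blood lineages stand beside these values, and which cells gave their signal was not tested. None of them passed over all genes (limma), while an unadjusted p under 0.05, which 2.92% of all genes had on the higher and 4.57% on the lower side, was found for 2 neutrophil genes (both higher), 1 B lineage gene (higher) and 0 erythroid genes. The monocyte and macrophage list and the T and NK list each had 2 such genes higher and 1 lower. Of 10 neutrophil genes, 8 had positive differences, with a median of 0.36. Retnlg was at 0.98 (SE 0.22) and Mmp8 at 0.64 (SE 0.20). The 2 negative ones, Mpo at -0.17 (SE 0.14) and Prtn3 at -0.05 (SE 0.29), had mean levels of log2 12.36 and 10.97. Both therefore weigh in the sum of the list. The summed neutrophil intensity was 11086 to 16614 in wild-type and 14466 to 20326 in Dnmt3a+/- cells. By its median deviation the list was lowest on wild-type replicate 2, at -0.59, where the cohesin genes were highest. It was highest on Dnmt3a+/- replicate 1, at 0.74, where the cohesin median was -0.10. On Dnmt3a+/- replicate 2, where the cohesin genes were lowest (-0.47), it was 0.34, and on wild-type replicate 1 it was 0.37. Of 8 monocyte and macrophage genes, 7 were positive (summed intensity 1256 to 1481 and 1468 to 1608), with Adgre1 at 0.42 (SE 0.15) but Csf1r at -0.73 (SE 0.19). Of 7 B lineage genes, 4 were positive (968 to 1155 and 1085 to 1327), with Cd79a at 0.85 (SE 0.33) and Igll1 at 0.21 (SE 0.22). The arrays of Cd79a overlapped, at a mean level of log2 6.97. Levels in this list reached down to 6.38, where the probe-set filter lay at 5.89. Of 8 T and NK genes, 5 were positive (1906 to 2330 and 1793 to 2312), with Klrd1 at -0.71 (SE 0.17) and Cd3e at 0.33 (SE 0.12). Mean levels were log2 6.71 for Klrd1 and 7.58 for Cd3e, and the list reached down to 6.18. Of 5 erythroid genes, 3 were positive (751 to 933 and 818 to 874), with Slc4a1 at 0.15 (SE 0.10) and Tfrc at -0.17 (SE 0.18). No marker reads 0 on these arrays, since every probe set has a positive value. Fewer cells of a type and less RNA per cell cannot be told apart in such bulk samples, and the part of these markers in the cohesin values was not tested.

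**Figure D4:**
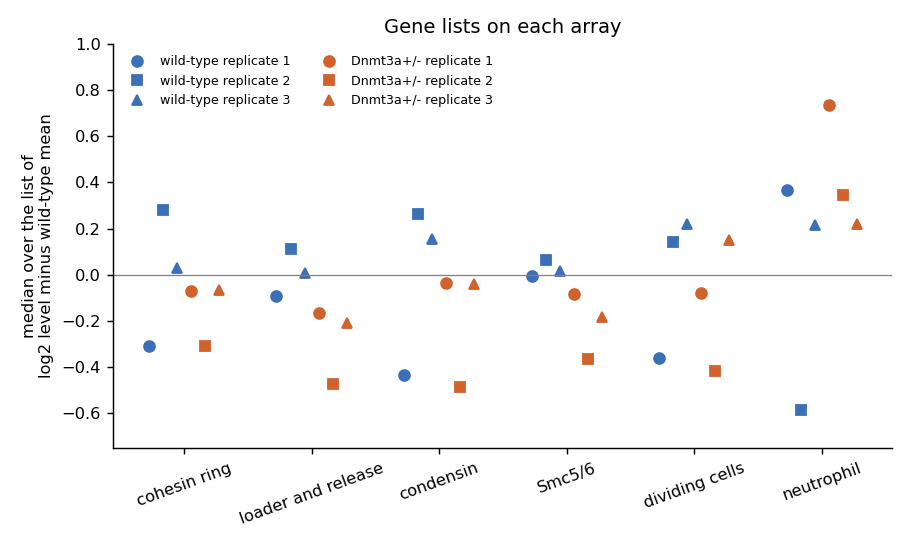
Median over each gene list of the log2 level minus the gene's wild-type mean (y axis), on each of the 6 arrays; colours give the genotype and marker shapes the replicate number. Cohesin ring, condensin and dividing-cell genes are lowest on wild-type replicate 1 and Dnmt3a+/- replicate 2, while the neutrophil list is lowest on wild-type replicate 2, at -0.59.

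The genes whose levels over the 6 arrays were most like the mean profile of the 10 were Cpsf2 (Pearson r = 0.995), Sf3b1 (0.994), Phf20 (0.994), Slc35a4 (0.994) and Rps2-ps11 (0.994). The arrays share their scaling and their genotype split, and 972 genes had an r above 0.9, so such a likeness over 6 arrays is common here.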

How the data were processed

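RNA of KLS cells was extracted with TRIzol, amplified from 20 ng as whole-transcript cDNA and labelled with biotin, per the labels' protocols. The authors deposited 1 normalized intensity for each probe set on each array, from RMA in Partek per the submitters' processing notes; for the genome build, versions and settings, the sources used here give nothing. The deposited intensity values ran from 1.84 to 22239 with array medians of 59.8 to 61.6, a linear scale, so log2 was taken with no pseudocount. With array medians this close, a shift of most genes at once would not show. The number of arrays limits the precision, and there is no read depth.

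Of 1256831 probe sets, 318760 had 1 gene symbol, 6684 several and 931387 none listed. Older symbols were updated through RefSeq (GRCm38.p6; 18006 current, 4227 updated, 63 kept as given). Each gene was given the mean over those of its named probe sets (log2) that lay above the median probe-set level (log2 5.89). The test was limma's moderated fit (version 3.58.1, R version 4.3.3, genotype as the sole term) over all 20059 genes and over all 628415 probe sets above that level, with Benjamini-Hochberg adjustment. Single pairs used an exact permutation test, which cannot go below 0.1, and intervals of pairs a pooled SD. Data were simulated 10 times from the 20059 genes' own means and spreads, each time with 200 genes changed. The fit found 67.5% of genes changed by log2 1 and 95.1% of those changed by log2 2, with a mean of 6.5 false calls. Noise was drawn separately for each gene, without deviations shared across an array. Differences as small as those of the cohesin genes (-0.35 to -0.04) were not simulated, so the power to find them is not known.

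The cohesin genes, gene lists and tests were chosen with earlier results of these data known. The text names all 10, the 2 genes of each list with the smallest p, Dnmt3a, Kit and Ly6a. It also names the 5 genes with the most similar profile and the extreme probe sets. Mau2, Ctcfl, Yy1, Ldb1, Smc1b, Mpo, Prtn3 and the probe sets shown in full were chosen after their values were seen. Some listed genes were not analysed here. Alternatives changed the filter, the summary, the scaling, a pseudocount of 16, the variance model, the block or left out 1 array.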

Additional observations from a re-analysis of the deposited data

How the results depend on the processing

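Over 15 alternatives, 148 of the 150 values of single cohesin genes kept their negative sign, and no cohesin gene passed at adjusted p 0.05 under any of them (limma). The exceptions were Stag1 and Rad21 without wild-type replicate 2. With 1 array left out, Stag1 ran from -0.20 to 0.10 and Rad21 from -0.19 to 0.0093. The variance model and the replicate block cannot change a difference, only its p, so the signs under them were fixed in advance. All alternatives reuse the same arrays and are no independent evidence. The median difference of the 10 genes was -0.25 to -0.19 under the alternatives that kept all arrays, and -0.33 to -0.13 with 1 array left out. The count of all genes with an unadjusted p under 0.05 (limma, 1502) was 2593 with array weights, and 925 to 1928 with 1 array left out, the lowest without wild-type replicate 2; the cause was not tested. Of the cohesin genes, Nipbl alone had such a p under 6 of the alternatives that kept all arrays. Stag2, Nipbl and Pds5a had it under array weights, Stag2 and Ctcf with the median of probe sets, and none with the replicate block. With 1 array left out it was found for Stag2, Nipbl, Wapl and Pds5a (without wild-type replicate 1), for none (without wild-type replicate 2 or 3), for Nipbl and Ctcf (without Dnmt3a+/- replicate 1), for Nipbl (without replicate 2) and for Pds5a (without replicate 3). After cyclic loess the median of the 10 was -0.19, and that of other genes in the intensity range -0.10.

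Whether the replicate numbers of the labels pair the arrays is not known. The deviations of same-numbered arrays from their group means correlated at -0.05, -0.09 and 0.11 across genes. Those of unlike-numbered arrays correlated at -0.17 to 0.17. With 3 arrays a group, whose deviations sum to 0, these values cannot decide the question. With the replicate number as a block, 1274 genes had an unadjusted p under 0.05.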
